A study of Mus musculus with 12 samples.

Results

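Chpf encodes chondroitin polymerizing factor, a partner protein of the enzymes that lengthen chondroitin sulfate chains. It was examined here together with 9 other genes of the same pathway, Chpf2, Chsy1, Csgalnact1 and Csgalnact2 (chain elongation), Xylt2, B4galt7 and B3gat3 (linkage of the chain to its core protein) and Chst11 and Chst12 (sulfation). The 10 genes were taken by name and made up 10 of 35944 annotated genes. A filter of at least 10 counts in at least 3 libraries left 13923 genes, among them 9 of the 10, and Csgalnact1 fell below it. Chpf itself was selected on its own counts, since earlier results of these data showed it lower in the miR-EV libraries than in the control libraries. Its differences from the control are therefore a description, for which no test is read. Tests are given for the other 8 genes and for comparisons that did not directly serve to choose it.

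The data were mRNA-Seq libraries of RAW 264.7 cells, a mouse macrophage line, treated for 48 h with extracellular vesicles (EVs) at 3 µg of vesicle protein per ml. In all 4 groups the EVs came from MS-1 cells, a mouse endothelial line, were collected by ultracentrifugation and were electroporated with a synthetic pre-miRNA mimic, and the serum of the macrophage medium had been depleted of its own vesicles. The groups differed in the mimic, which was a control mimic (ctrl-EVs; cel-miR-67, a worm miRNA, in the study's methods), mouse miR-142-5p (giving miR-142-5p-EVs), the mouse miRNA miR-183-5p (giving miR-183-5p-EVs) or mouse miR-222-3p (giving miR-222-3p-EVs). Each group had 3 libraries, numbered 1 to 3 in the titles, and no source used here says whether these libraries were separate cultures (the methods state only in general that experiments were repeated), so the p values below measure the spread between these libraries. No untreated cells, and no cells given EVs without a mimic, were analysed here.

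Chondroitin sulfate is a long sugar chain that hangs from proteoglycan core proteins on the cell surface, in secretory granules and in the matrix. Its synthesis starts when a xylosyltransferase (Xylt1 or Xylt2) puts xylose on a serine of the core protein, after which galactosyltransferases (B4galt7, then B3galt6) and a glucuronyltransferase (B3gat3) complete a linkage that heparan sulfate chains also use. Csgalnact1 and Csgalnact2 add the first N-acetylgalactosamine and so commit the chain to chondroitin, Chsy1 and Chsy3 extend it together with Chpf and Chpf2, and sulfotransferases such as Chst11 and Chst12 sulfate the galactosamine at its 4 position. Macrophages carry such chains on Cd44 and on the invariant chain Cd74, and store them on serglycin (Srgn).

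The miRNAs after which the mimics are named are shown because the design asks what each does to the recipient cells, with the seed (nt 2 to 8) in capitals. The letters are the RefSeq mature forms (GRCm38.p6) and not those of the loaded mimics, which are not printed here and can differ from them, as in length.
miR-142-5p (mmu-miR-142a-5p, chr11:87756867-87756887, plus strand): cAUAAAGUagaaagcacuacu
miR-183-5p (chr6:30169711-30169732, minus strand): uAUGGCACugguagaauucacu
miR-222-3p (chrX:19146901-19146923, minus strand): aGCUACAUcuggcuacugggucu
No pair of the 3 miRNAs shared a seed. The 7-nt match to each seed reads ACTTTAT for miR-142-5p, GTGCCAT for the miR-183-5p seed and ATGTAGC for miR-222-3p. Each gene's most abundant protein-coding transcript was searched for them over its 3′ UTR, on the transcript strand only. Of 12470 tested genes with such a 3′ UTR (median length 913 nt), 13.9% held the match of miR-142-5p, 8.93% that of miR-183-5p and 9.35% that of miR-222-3p.

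Matches were found in 2 of the 10 genes. The windows around them are shown with the match in capitals (GENCODE vM21 transcripts, GRCm38).
Chsy1-201, miR-222-3p match (chr7:66172604-66172632, plus strand): tgctgaacactATGTAGCaccggcttaat
Chst11-201, miR-222-3p match (chr10:83193883-83193911, plus strand): aaactgggagaATGTAGCatttctgggct
Chst11-201, miR-142-5p match (chr10:83194058-83194086, plus strand): tccatctgggaACTTTATgagagtgttgc
The 3′ UTR of Chst11-201 was the longest of the 10 (4101 nt), and that of Chsy1-201 had 1377 nt. The 401-nt 3′ UTR of Chpf-201 (chromosome 1) held 0 matches to any of the 3 seeds, as did the 120-nt one of Chpf2-202. A match is a description of the letters and not of a bound site.

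The libraries held 16294611 to 22974853 estimated counts, and 3 counts, the smallest signal taken as detectable, were 0.131 to 0.184 CPM (estimated counts scaled to equal library totals), which covers counting error only. All 8 macrophage markers were present in every library, with a summed level of 811 to 1077 TPM (a share of all transcript molecules that takes transcript length into account). The 8 endothelial markers summed to 4.60 to 9.41 TPM, mainly Pecam1 and Vwf, while Cldn5 was at 0 in all 12 libraries. The 7 fibroblast and chondrocyte markers summed to 0.256 to 1.09 TPM. Libraries with the same title number deviated together, with a mean correlation of their deviations of 0.608 (18 pairs, 0.409 to 0.797) across genes, so the fits with the number as a block are given wherever they change a call. What the number stands for is not stated.

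Compared per length, the linkage enzymes B3gat3 and B4galt7 were the most abundant of the 10 transcripts and Chpf was among the lowest. The mean TPM over the 12 libraries was 35.0 ± 5.24 (SD) for B3gat3, 19.8 ± 2.51 for B4galt7, 17.4 ± 5.10 for Csgalnact2, 12.2 ± 3.19 for Chpf2 and 12.1 ± 2.96 for Chst12. It was 9.84 ± 1.79 for Chsy1, 8.73 ± 2.31 for Xylt2, 4.65 ± 1.18 for Chpf and 1.38 ± 0.236 for Chst11. B4galt7 and Csgalnact2, and the neighbours in this order from Chpf2 down to Xylt2, differed by less than the larger of their SDs. Csgalnact1 (0.0167 to 0.157 TPM, 1 to 8 estimated counts) and Chsy3, the paralogue of Chsy1 (0 to 0.102 TPM, at most 6 counts), were near the floor in every library. Xylt1, which does the same reaction as Xylt2, stood at 1.32 TPM.

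**Figure D1:**
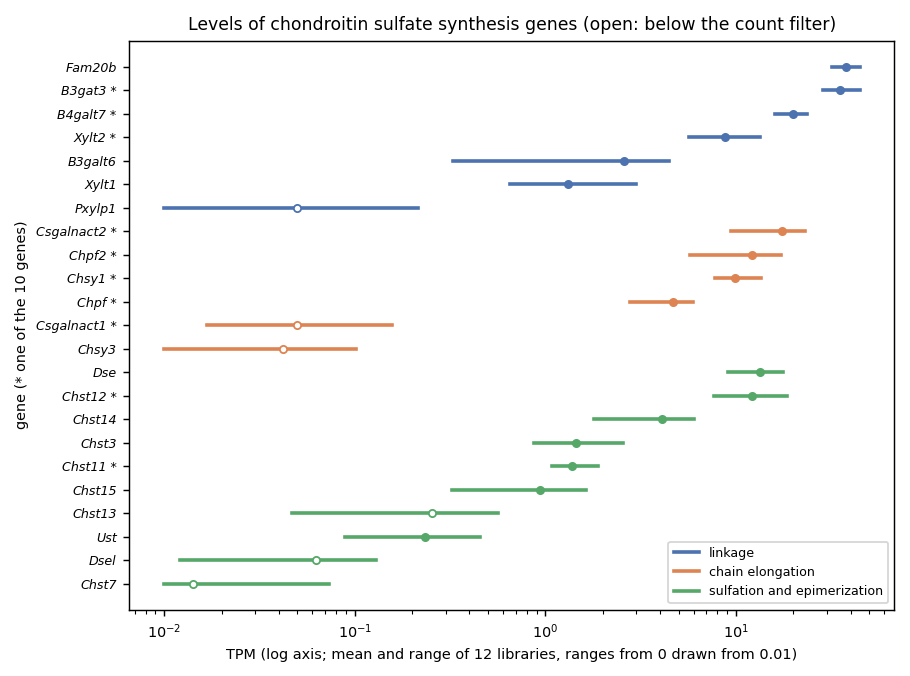
Mean level (point, open below the count filter) and range over the 12 libraries (line, ranges from 0 drawn from 0.01) in TPM, on a log axis, of the genes of 3 steps of chondroitin sulfate synthesis. The 10 genes carry an asterisk, and Chpf, at a mean of 4.65 TPM, lies below Csgalnact2, Chpf2 and Chsy1 in the elongation group.

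The elongation genes are described first, beginning with Chpf (chromosome 1, 75474569 to 75479307, minus strand, GRCm38). Its normalized counts (estimated counts divided by a size factor of the library and by the gene's mean transcript length relative to its average) were 225, 244 and 235 in ctrl-EV libraries 1, 2 and 3. They were 157, 160.4 and 195 (miR-142-5p-EVs), 122, 127 and 212 (miR-183-5p-EVs) and 169, 161 and 206 (miR-222-3p-EVs). All 9 miR-EV libraries lay below the 3 ctrl-EV libraries on this scale, which was so for 0.129% of tested genes, and this is part of what chose the gene. Set beside the control with its own title number, each of the 9 was lower, by −47.9% to −9.85% of the control value, as for 3.86% of tested genes. In a bulk sample a change in the mix of cells and a change in RNA per cell cannot be told apart.

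The size of that difference went with the title number. In the number 3 libraries Chpf differed from ctrl-EV library 3 by −17.1% (miR-142-5p-EVs), −9.85% (miR-183-5p-EVs) and −12.4% (miR-222-3p-EVs). In the same order it differed by −30.3%, −45.8% and −24.7% in the number 1 libraries and by −34.3%, −47.9% and −33.9% in the number 2 libraries. The 3 smallest of the 9 differences thus all came from number 3, and whether the treatment difference itself depends on the number was not tested. The fitted log2 fold change of the 9 against the 3 libraries was −0.48 (SE 0.18) without and −0.50 (SE 0.14) with the number as a block, that is to 0.709 of the ctrl-EV level. By mimic, with the block, it was −0.47 (SE 0.19, miR-142-5p-EVs), −0.63 (SE 0.19, miR-183-5p-EVs) and −0.40 (SE 0.19, miR-222-3p-EVs), and these comparisons share the 3 control libraries. As the value that chose the gene, and not as a test of it, the DESeq2 adjusted p of the pooled contrast with the block was 0.0337, just inside the threshold of 0.05, and that of the next of the 10 genes, Xylt2, was 0.129.

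The separation of Chpf from the control depended on the scale. In TPM the ctrl-EV libraries held 5.68, 5.78 and 5.78, while the number 3 libraries held 5.39 (miR-142-5p-EVs), 5.92 (miR-183-5p-EVs) and 5.77 (miR-222-3p-EVs), so 2 of the 9 miR-EV libraries were at or above the lowest control. The other 6 lay between 2.78 and 4.24 TPM. In CPM, with no account of length, miR-183-5p-EV library 3 (11.6) also passed ctrl-EV library 1 (11.5), and the other 8 miR-EV libraries lay between 6.08 and 10.6. Between the normalized counts and TPM the median tested gene of the number 3 miR-EV libraries shifted by 0.15 to 0.17 on the log2 scale and that of ctrl-EV library 3 by −0.02, relative to the mean library.

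**Figure D2:**
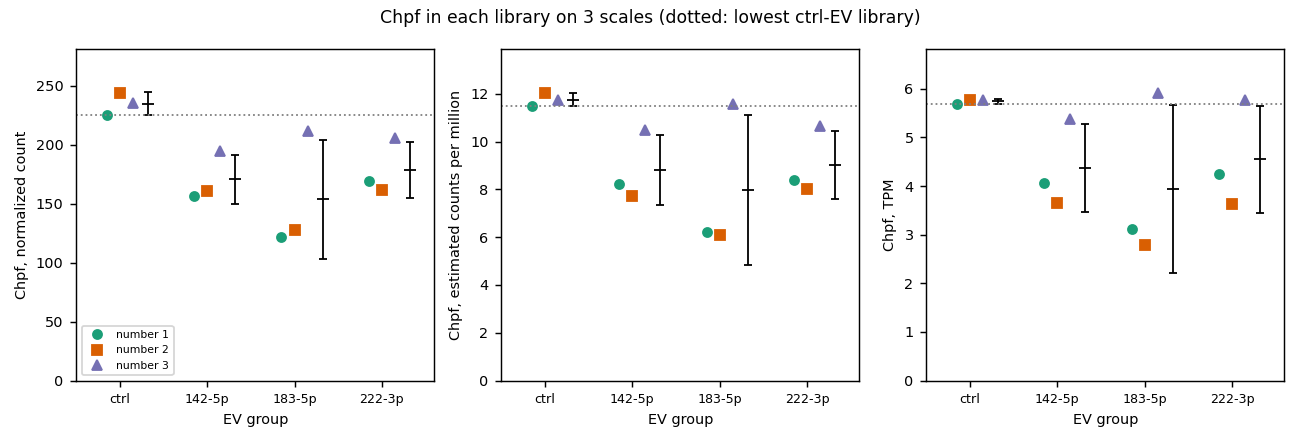
Chpf in each library by EV group as normalized count, CPM and TPM, with symbols for title numbers 1 to 3, the mean and SD of 3 libraries in black, and the lowest ctrl-EV library as a dotted line. The number 3 libraries lie nearest to the controls in every miR-EV group, and in TPM 2 of them (5.92 and 5.77) reach the line.

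The Chpf reads were divided by Salmon among 4 annotated transcripts with at least 5% of the gene's TPM, a division that was uneven between libraries. Chpf-201, the protein-coding transcript with the highest share (70.2% on average), had 34.8% to 88.2% of the gene's TPM in single libraries. Its estimated counts were 157, 169 and 150.1 in the ctrl-EV libraries, 133, 80.8 and 140.1 (miR-142-5p-EVs), 81.4, 90.8 and 225 (miR-183-5p-EVs) and 160.2, 97.2 and 79.2 (miR-222-3p-EVs). Taken alone, and not scaled for library totals, it overlapped between the groups, since miR-183-5p-EV library 3 and miR-222-3p-EV library 1 lay among or above the controls. The rest was given to Chpf-204, annotated as a target of nonsense-mediated decay (12.8%), Chpf-205, which retains an intron (9.96%), and Chpf-202, also coding (6.96%). With 115 to 259 counts for the whole gene, these parts rest on 0 to 79.8 counts each, and the gene sum is the firmer value.

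Chpf2, a relative of Chpf that also takes part in chain polymerization, was not called in any comparison with the control. Its normalized counts were 659, 477 and 677 in ctrl-EVs, 538, 602 and 645 (miR-142-5p-EVs), 595, 317 and 634 (miR-183-5p-EVs) and 605, 435 and 742 (miR-222-3p-EVs). The groups overlapped throughout, and the pooled log2 fold change was −0.09 with a 95% interval of −0.36 to 0.18 (block). Chsy1, the enzyme that carries both transferase activities of chain extension, had 452, 768 and 518 in ctrl-EVs and 439 to 919.6 in the 9 miR-EV libraries (median 529), with a log2 fold change of 0.04 (−0.16 to 0.23). Csgalnact2, the initiating transferase, had 1019, 704 and 914 in ctrl-EVs and 541 to 1148 in the miR-EV libraries (median 970.1), with −0.03 (−0.21 to 0.15). The highest Chsy1 and the lowest Csgalnact2 library of every group was number 2.

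Among the linkage genes, Xylt2 stood higher and B4galt7 and B3gat3 stood lower in most miR-EV libraries, and none of them passed the threshold in DESeq2 with or without the block. Xylt2 normalized counts were 152, 293 and 160.2 in ctrl-EVs, 240.4, 396 and 189.5 (miR-142-5p-EVs), 229, 367 and 167 (miR-183-5p-EVs) and 235, 294 and 172 (miR-222-3p-EVs). All 9 were above the control with their own number, as for 3.66% of tested genes, although the groups overlapped because number 2 was high in all of them. In miR-222-3p-EV library 2 the margin was only 293.999 against 292.517, and in TPM 8 of 9 libraries were above their control. The log2 fold change was 0.34 (SE 0.13, 95% interval 0.09 to 0.59) with the block, at a DESeq2 adjusted p of 0.129, and 0.34 (SE 0.31) without it.

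The size of the Xylt2 difference depended on how transcript length was taken into account. Its mean effective length, which enters the normalization, moved between 1276 and 2400 nt among libraries, against 2569 to 2778 nt for Chpf. The full-length Xylt2-201 held 89.0% of the estimated counts and 51.3% of the TPM, since 3 transcripts of 437 to 643 nt (Xylt2-203, Xylt2-205 and Xylt2-206) had a mean of 3.78, 13.4 and 3.20 estimated counts. The estimated counts of Xylt2-201, not scaled for library totals, were 182.7 ± 20.8 (SD, n = 3) in ctrl-EVs and 213 ± 23.7 (n = 9) in the miR-EV libraries. With no length offset the log2 fold change with the block was 0.15, and 6 of 9 miR-EV libraries were above their control in CPM. When GC content was corrected for as well as the block, Xylt2 was called (log2 fold change 0.41, DESeq2 adjusted p 0.0404) in a fit that called 1.92% of tested genes.

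**Figure D3:**
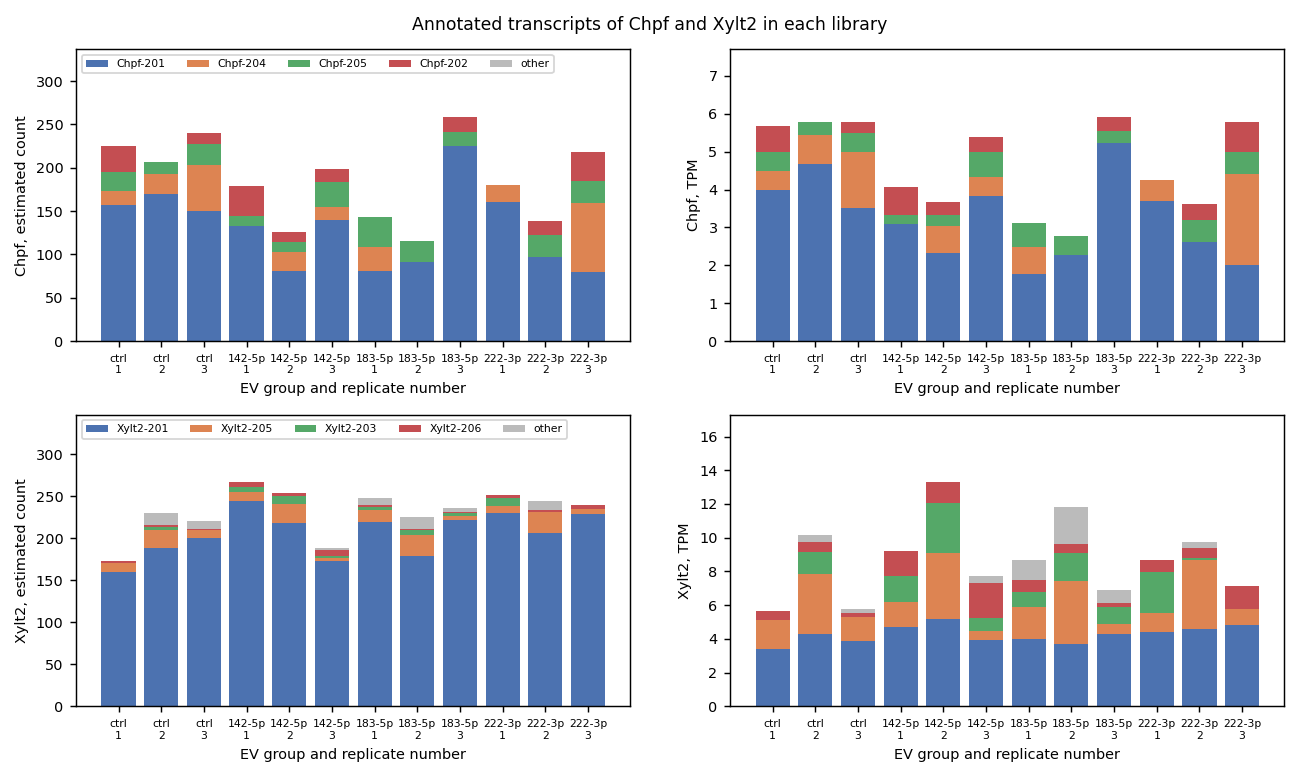
Estimated counts (left) and TPM (right) of the annotated transcripts of Chpf (top) and Xylt2 (bottom), stacked for each of the 12 libraries. Xylt2-201 makes up 89.0% of the counts of Xylt2 and 51.3% of its TPM, and the share of Chpf-201 runs from 34.8% to 88.2%.

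B4galt7 had 571, 505 and 628 normalized counts in ctrl-EVs, 461, 480.3 and 515 (miR-142-5p-EVs), 468, 531 and 525 (miR-183-5p-EVs) and 511, 466 and 507 (miR-222-3p-EVs). It was below the control of the same number in 8 of 9 libraries and in 9 of 9 in TPM. Its log2 fold change was −0.19 (SE 0.08, 95% interval −0.35 to −0.03) with the block, at a DESeq2 adjusted p of 0.211, and it was not called. B3gat3 had 686, 651 and 887 in ctrl-EVs and 567 to 757 in the miR-EV libraries (median 663), lower than its control in 7 of 9, with −0.16 (−0.33 to 0.01). The ctrl-EV library 3 was the highest of the 12 for both genes.

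Of the sulfotransferases, Chst11 stood below the control in 2 miR-EV groups as normalized counts without being called, and Chst12 overlapped between all groups. Chst11 normalized counts were 114, 129 and 119.6 in ctrl-EVs, 105, 109 and 135 (miR-142-5p-EVs), 94.3, 98.1 and 92.7 (miR-183-5p-EVs) and 90.3, 97.2 and 113.7 (miR-222-3p-EVs). On this scale every library of miR-183-5p-EVs, and likewise of miR-222-3p-EVs, was below every control, the highest of the latter by only 113.741 against 113.889. Such a pattern was shown by 1.47% and 1.21% of tested genes for these groups, and by 1.22% for miR-142-5p-EVs, where of the 10 genes only Chpf had it. In TPM the miR-183-5p-EV libraries of Chst11 stayed below every control (1.09 to 1.31 against 1.46 to 1.55). By contrast, miR-222-3p-EV library 3 (1.61 TPM) lay above every control. The log2 fold change of Chst11 was −0.34 (SE 0.20) for miR-183-5p-EVs, −0.26 (SE 0.20) for miR-222-3p-EVs and −0.05 (SE 0.20) for miR-142-5p-EVs, and none was called in DESeq2, with unadjusted p of 0.0847, 0.191 and 0.784 in turn. For Chst12 the values were 239.9, 321 and 309 in ctrl-EVs and 183.1 to 486 in the miR-EV libraries (median 323), with a pooled log2 fold change of 0.13 (−0.24 to 0.50) under the block. Chst12-202, a short coding transcript of 766 nt, took 0 to 37.4% of the gene's TPM, and Chst12 was higher than its control in 6 of 9 libraries as normalized counts and in 3 of 9 as CPM.

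**Figure D4:**
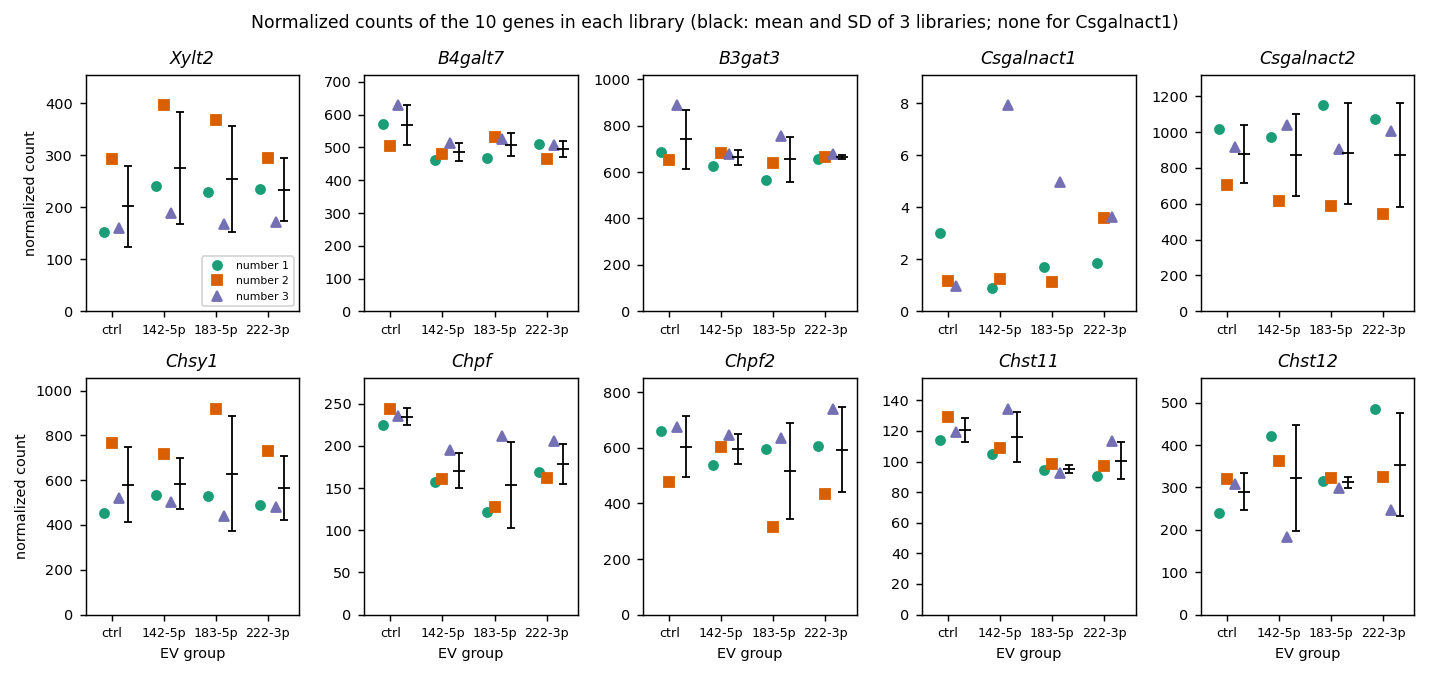
Normalized counts of the 10 genes in each of the 12 libraries by EV group, with symbols for title numbers 1 to 3 and the mean and SD of 3 libraries in black (none for Csgalnact1, which was near the floor). The 3 ctrl-EV points of Chpf (225 to 244) lie above all 9 others (122 to 212), and the number 2 points of Xylt2, Chsy1 and Csgalnact2 lie apart from the rest in every group.

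Chpf aside, 0 of the other 8 tested genes were called between a mimic and ctrl-EVs in the fits without or with the block (Xylt2 was with the GC correction given above). Without the block this held in DESeq2 for each of the 3 mimics and for all miR-EVs together, where 0.00718% of all tested genes were called for miR-142-5p-EVs and 0% in each of the other 3 contrasts. Among the 8, B4galt7 alone reached an unadjusted p under 0.05, in the pooled contrast. With the block, 0.0575%, 0.417%, 0.0359% and 1.54% of tested genes were called in these 4 comparisons and again 0 of the 8, while Chpf passed the threshold in the pooled contrast that chose it, from which nothing is read. DESeq2 gave Chst11 no adjusted p in the pooled contrast with the block (unadjusted p 0.167), so that gene could not be called there. Unadjusted p under 0.05 was then reached by Xylt2 for miR-142-5p-EVs and in the pooled contrast, and by B4galt7 in the pooled contrast. The edgeR test called 0 of the 8 in each of the 4 comparisons with or without the block. With the block its unadjusted p was under 0.05 for Xylt2 and B4galt7 in the miR-142-5p-EV and pooled contrasts, and without it for 0 of the 8.

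To ask whether the mimics differed among themselves, the 3 miR-EV groups were compared pairwise, which did not enter the choice of Chpf directly. Choosing a gene low in all 3 groups favours a gene that is alike among them, so the result for Chpf is a description. No difference among the groups was detected for any of the 9 tested genes in DESeq2 or edgeR, and 0 of the 9 reached an unadjusted p under 0.05 in either tool without the block or with it. The share of tested genes called without the block was 0.0144% for miR-142-5p-EVs against miR-183-5p-EVs, 0.00718% for miR-142-5p-EVs against miR-222-3p-EVs and 0% where miR-183-5p-EVs were set against miR-222-3p-EVs, and with the block it was 0.0144%, 0.0215% and 0%. For Chpf the log2 difference of miR-183-5p-EVs from miR-222-3p-EVs was −0.24 with a 95% interval of −0.61 to 0.14 (block).

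More of the family was called between title numbers than between treatments. In all 4 EV groups the library numbered 2 had more Xylt2 and Chsy1 and less Csgalnact2 than those numbered 1 and 3, and in 3 of the 4 it had less Chpf2. All of these passed the threshold over the 12 libraries. They were 4 of the 9 tested genes, in a comparison in which 64.1% of all tested genes were called, so the share among the 9 was no greater than the background. Xylt2 had 293 to 396 normalized counts in the 4 number 2 libraries and 152 to 240.4 in the other 8, a log2 fold change of 0.82 (SE 0.13, DESeq2 adjusted p 2.67e-10). Chsy1 had 715 to 919.6 against 439 to 534, with 0.68 (SE 0.10, adjusted p 1.01e-10). Csgalnact2 had 541 to 704 against 907 to 1148, with −0.71 (SE 0.10, adjusted p 1.33e-12). In these 3 genes the number 2 libraries did not overlap the others as normalized counts. The plain estimated counts of Xylt2 (225 to 254 against 173 to 267) and of Chsy1 (570 to 806 against 449 to 622) did overlap. Those counts are not scaled for library totals. In TPM neither gene overlapped, and Chsy1 had 11.04 to 13.6 against 7.74 to 9.43.

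Chpf2 had 317 to 602 against 538 to 742, with a log2 fold change of −0.48 (SE 0.13, DESeq2 adjusted p 0.000372), and here 1 library overlapped. It was miR-142-5p-EV library 2, in which 15.1 estimated counts fell on Chpf2-205, a transcript of 404 nt, and brought the mean effective length to 2247 nt against 3113 to 3732 nt elsewhere. In plain estimated counts it held 333, among the 300.0 to 393 of the other number 2 libraries and apart from the 653 to 884 of the rest. Chpf was not called between number 2 and the others (−0.13, 95% interval −0.41 to 0.15), and neither were Chst11 (0.02, −0.29 to 0.34), Chst12, B3gat3 and B4galt7. All 4 number 2 libraries had lower totals (16294611 to 18927524 estimated counts) than the other 8 (18990222 to 22974853) and a lower summed macrophage marker level (811 to 866 against 971 to 1077 TPM), and the part of either in these differences was not tested.

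Between numbers 1 and 3, 0 of the 9 genes were called in DESeq2, against 23.4% of tested genes, and edgeR called 0 too, with unadjusted p under 0.05 for the same 4 genes in both. The log2 fold change of number 1 against 3 was 0.47 (SE 0.21) for Chst12 (239.9 to 486 against 183.1 to 309 normalized counts), 0.30 (SE 0.15) for Xylt2, −0.37 (SE 0.16) for Chpf and −0.24 (SE 0.11) for B3gat3. Their DESeq2 adjusted p was 0.0813, 0.127, 0.0857 and 0.0860 in turn. Without ctrl-EV library 1, Xylt2 and Chst12 were called, and without ctrl-EV library 3, Chpf and Chst12 were.

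**Figure D5:**
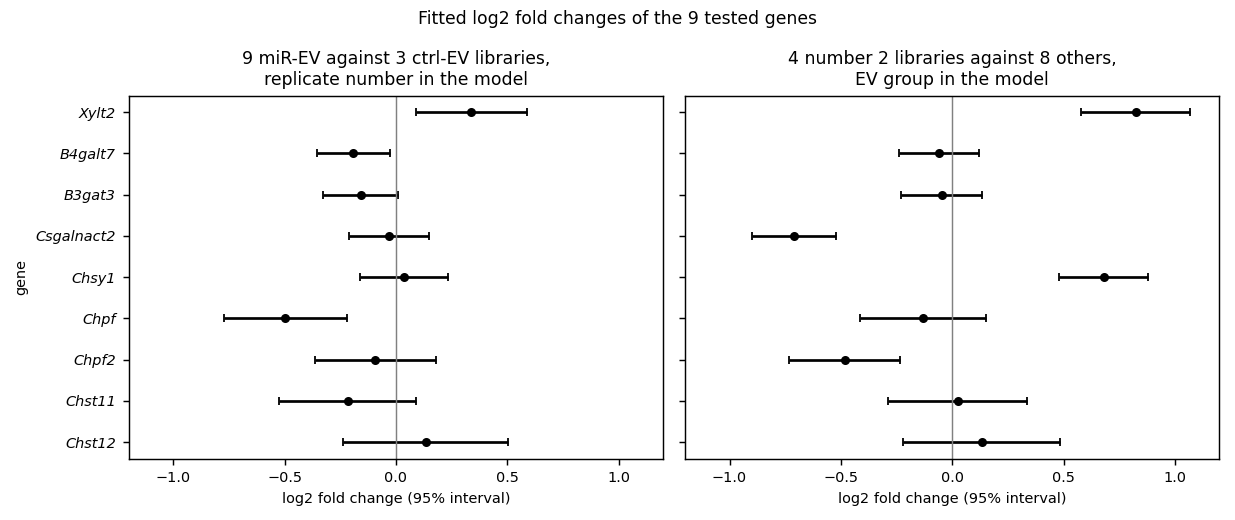
Log2 fold change and 95% interval of the 9 tested genes for all miR-EV against ctrl-EV libraries (left, number as a block) and for number 2 against numbers 1 and 3 (right, EV group in the model). Chpf at −0.50 lies farthest from 0 on the left and was chosen for it, while Xylt2 and Chsy1 (0.82 and 0.68) and Csgalnact2 and Chpf2 (−0.71 and −0.48) lie apart on the right.

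Beyond the 10 genes, 1 other gene of the pathway was called between treatments. In lists of 7 linkage, 6 elongation, 10 sulfation and epimerization, 23 heparan sulfate, 12 sugar and sulfate donor, 22 core protein, 16 lysosomal breakdown and 6 hyaluronan genes, some of them among the 10, the pooled contrast called 0 genes in DESeq2 without the block, and, Chpf aside, B4galt7 alone had an unadjusted p under 0.05. With the block, in a fit that called 1.54% of tested genes, it called 1 gene besides Chpf (which was chosen on it), namely Hyal1, a lysosomal hyaluronidase that also cuts chondroitin. Its normalized counts were 798, 1969.9 and 281 in ctrl-EVs, 1543, 2237 and 337 (miR-142-5p-EVs), 1312, 2882 and 337 (miR-183-5p-EVs) and 1440.5, 2243 and 319.8 (miR-222-3p-EVs). Each miR-EV library was above its control, as for 3.66% of tested genes, with a log2 fold change of 0.47 (SE 0.12, DESeq2 adjusted p 0.00968). In the order given, the lists held 6, 4, 7, 11, 12, 13, 15 and 3 tested genes. A single call among them was close to the share over all tested genes. The spread between title numbers in Hyal1 was far greater, at 1.90 (SE 0.11) for number 2 against the others and 1.97 (SE 0.13) for number 1 against 3. The median log2 fold change of the tested genes with the block was −0.13 in the linkage list (6 genes), −0.06 in the elongation list (4), 0.04 in the sulfation list (7) and 0.00 over all tested genes. The 4 elongation genes were all among the 10 and included Chpf, chosen on this contrast, so their median is a description.

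Between the title numbers, by contrast, calls were spread over every step, as they were over the tested genes at large. They are not read as a trait of the pathway. Those in the linkage and elongation lists included Xylt2, Chsy1, Csgalnact2 and Chpf2, given above. For number 2 against the others, 3 of 6 tested linkage genes, 3 of 4 elongation genes, 3 of 7 sulfation genes, 9 of 11 heparan sulfate genes, 9 of 12 donor genes, 11 of 13 core protein genes, 11 of 15 breakdown genes and 1 of 3 hyaluronan genes passed the threshold, beside 64.1% of all tested genes. B3galt6, which adds the second galactose of the linkage after B4galt7, was lower by the widest margin among the linkage genes (log2 fold change −2.21, SE 0.23, DESeq2 adjusted p 1.16e-20). The kinase Fam20b, which phosphorylates the linkage xylose, was higher (0.27, SE 0.07, adjusted p 0.000287). The 3 called sulfation genes were all lower, namely Ust (uronyl 2-O-sulfation) at −1.11 (SE 0.51), Chst15 (a second sulfate on N-acetylgalactosamine 4-sulfate) at −0.91 (SE 0.24) and Chst14 (dermatan 4-O-sulfation) at −0.88 (SE 0.17). Ust, at 4 to 23 estimated counts per library, passed the threshold only just (DESeq2 adjusted p 0.0489).

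In the heparan sulfate list, which shares the linkage, Hs2st1, Ndst2, Extl3, Hs6st1 and Hs3st3b1 were higher in number 2 (0.27 to 0.72 on the log2 scale) and Glce, Extl1, Ndst1 and Extl2 lower (−0.70 to −0.61). Among the genes that supply activated sulfate and sugars, those higher included Ugdh, Papss1, Slc35d1, Impad1, Uap1 and Papss2 (0.26 to 1.04), and those lower were Slc35d2 and Slc26a2 (−0.74 and −0.25). Core protein genes went both ways, with Cd44, Aplp2, Cd74, Ncan and Sdc3 higher (0.22 to 1.63) and Hspg2, Vcan, Nrp1, Csf1, App and Srgn lower (−1.87 to −0.21). Of these, Hspg2 (2 to 20.0 estimated counts per library), Vcan (1 to 30), Nrp1 (5 to 35) and Ncan (4.23 to 19.2) rested on few counts. So did Papss2 (6.61 to 20.2) among the donors. Of the breakdown enzymes, Sumf1, Hexa, Arsb, Glb1 and Hyal1 were higher (0.17 to 1.90) and Sgsh, Hgsnat, Naglu, Idua, Ids and Gusb lower (−1.11 to −0.42), and of the hyaluronan genes Has3 was higher (1.27). Small differences among these depended on the scale. Between normalized counts and TPM the median tested gene of the number 2 libraries shifted by −0.21 to −0.09 (log2), relative to the mean library. In TPM, Sumf1 (64.0 in number 2 against 67.0) and Cd44 (8.33 against 8.34) were no higher. Those barely higher included Fam20b (38.6 against 37.5), Ugdh (26.7 against 26.2), Hs2st1 (15.2 against 14.8) and Ndst2 (28.0 against 27.0). Between numbers 1 and 3 the called genes of the lists included Chst3, Papss1, Ugdh, Aplp2, Srgn, Sdc3, Hgsnat, Naglu, Arsb, Hyal1 and Hmmr, higher in number 1, and Csf1, Sdc4, Hexa, Sumf1 and Gusb, lower in it. The most abundant genes of the lists were Fam20b (37.9 TPM, linkage), Csgalnact2 (17.4, elongation), Dse (13.4, sulfation and epimerization), Glce (48.2, heparan sulfate), Uap1 (38.6, donors), Cd74 (713, core proteins), Hexa (382, breakdown) and Hmmr (43.0, hyaluronan).

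Around Chpf the genome is crowded. Obsl1 lies 3 bp from Chpf on the same strand and had 0 to 3 estimated counts in a library, Asic4 lies 226 bp away on the other side and also had 0 to 3, and Tmem198 lies 225 bp away on the plus strand and had 1 to 23. The nearest well-expressed gene, Gmppa (a regulator of GDP-mannose synthesis, 31390 bp away), had 1345, 1922 and 1398 normalized counts in ctrl-EVs and a pooled log2 fold change of 0.02 (SE 0.08, block). No annotated gene overlapped Chpf. Chpf2 overlaps Smarcd3 on the opposite strand (3.26 TPM), and whether reads were assigned by strand is not stated.

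After each library was set against the mean of its title number, the genes whose log2 values ran most like Chpf over the 12 libraries, among the 10868 genes whose normalized counts averaged 50 or more, included Tab1 (r = 0.94), Ndufaf2 (0.94), Mocs2 (0.93) and Ppp1r35 (0.92). These are descriptions over libraries of which 3 are the shared controls. Among the family, Chst11 (0.54), B3gat3 (0.51), B4galt7 (0.45) and Chpf2 (0.44) ran weakly with Chpf, Csgalnact2 (0.13) and Chst12 (−0.11) stood near 0, and Chsy1 (−0.53) and Xylt2 (−0.73) ran against it.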

How the data were processed

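Polyadenylated RNA of 12 RAW 264.7 libraries (4 groups of 3) was prepared with a stranded mRNA kit and quantified by the authors with Salmon against a mouse transcriptome, and the deposited files give estimated counts and TPM per annotated transcript. The sources used here differ on the annotation release (the paper's methods, the file names and a GRCh38 label do not match), and whether strand was used is not stated. For the present analysis, 116710 of 118783 transcripts were matched to GENCODE vM21 (GRCm38) by identifier and summed to 35944 genes. Estimated counts were rounded and fitted with transcript-length offsets, as tximport does. The 13923 genes that reached 10 counts in 3 or more libraries were kept. The normalized counts printed for single genes used size factors from all genes with at least 1 count. The shares of tested genes that showed a pattern used size factors from the kept genes alone.

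The main test was DESeq2 1.42.0 in R 4.3.3 (Wald test) with the 4 groups in a single model, without the replicate number. P values were adjusted over all tested genes (Benjamini-Hochberg, threshold 0.05), and adjusted values that DESeq2 withheld were left out. The 3 miR-EV groups were also set together against ctrl-EVs, and title number 2 against 1 and 3 and number 1 against 3 were compared with the group in the model. Same-numbered libraries of different groups deviated together (18 correlations from 0.409 to 0.797), so the title numbers were taken to pair the libraries, and fits with the number as a block are given where they change a call. Alternatives were edgeR 4.0.16 (quasi-likelihood test), TMM factors, no length offset, no count filter, a GC correction, only the groups compared, no group in the number contrasts, and each library or number left out. TPM and CPM for the paired comparisons were added after the data had been seen. The fits were tested on simulated data.

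The 10 genes and the pathway lists were chosen with earlier results of these data known. The genes named were the 10, the genes of the lists called in any comparison, the most abundant gene of each list, the neighbours of Chpf, the transcripts with at least 5% of a gene's TPM and the 5 genes whose pattern ran most like Chpf. Xylt1, Chsy3, Cd44 and Ext2 and Ext1 were added after their values were seen. A few genes that this rule names are not reported here. Sites were sought in 3′ UTRs of GENCODE vM21. Totals were 16294611 to 22974853 estimated counts. Intervals are 95% and, like the floor of 3 counts, leave out error beyond these libraries.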

Additional observations from a re-analysis of the deposited data

Results flagged for a closer look

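For each of the 9 tested genes, the normalized counts of the 9 miR-EV libraries and of the 4 libraries of each title number were examined for a single library far from the rest. Of these 36 sets of libraries, 3 held one by Dixon's criterion, which chance alone passes in about 1 in 20. Among the number 2 libraries, Chst12 was highest in miR-142-5p-EV library 2, at 361.915 normalized counts against 325.776 in the nearest. Among the number 1 libraries, Xylt2 was lowest in ctrl-EV library 1, at 152.164 against 229.294. Among the number 3 libraries, B4galt7 was highest in ctrl-EV library 3, at 628.332 against 524.881.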

How the results depend on the processing

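In the pooled contrast 0 of the 9 genes were called without the block, and 1 was with the replicate block or with the block and no length offset. That gene was Chpf, chosen on this contrast, so its place against the threshold describes the choice and tests nothing (log2 fold change −0.50 and −0.46). With a GC correction added to the block 1 was called as well, but it was Xylt2 (0.41), and Chpf (−0.40) lay outside the threshold, as it did in edgeR with the block (−0.51). In the block without number 3 Chpf lay inside it (−0.65), and without number 2 (−0.39) outside, while without number 1 (−0.45) no adjusted p was given. Over these and the other libraries left out in turn, 0 to 1 genes were called and Chpf lay between −0.65 and −0.39. In the comparisons between treatments, the block changed the call of Hyal1 (called with it and not without it) and of no other gene of the 10 or of the pathway lists, Chpf aside. Between numbers 1 and 3, 1 gene was called with no group in the model (Chst12, 0.49), and 0 to 2 with a library left out. In those fits Chpf lay between −0.49 and −0.23, Chst12 between 0.26 and 0.69 and Xylt2 between 0.22 and 0.40. The 4 calls for number 2 held in every alternative run. The cause of these changes was not tested.

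Differences near 0 changed sign. In Chpf2 for miR-142-5p-EVs the log2 fold change was 0.000773 with the block and 0.0339 with the block and GC correction. In Chst12 it was −0.0112 for miR-142-5p-EVs (block, no offset) and −0.0448 and −0.0563 for miR-183-5p-EVs (no offset, without and with the block). In Csgalnact2 for miR-183-5p-EVs it was −0.0256 (block), −0.00185 (edgeR), −0.0358 (edgeR, block), −0.00156 (TMM) and −0.11 (block and GC correction). For number 2, B3gat3 was at 0.0236 (no offset) and 0.0261 (GC correction), and B4galt7 at 0.00546 (GC correction). With libraries left out, the ranges that crossed 0 against the control were, for Chpf2, −0.23 to 0.000428 (pooled), −0.18 to 0.15 (miR-142-5p-EVs), −0.40 to 0.0249 (miR-183-5p-EVs) and −0.21 to 0.16 (miR-222-3p-EVs). For Chst11 the range was −0.19 to 0.0312 (miR-142-5p-EVs). For Chst12 they were −0.14 to 0.40, −0.27 to 0.47, −0.0169 to 0.20 and −0.15 to 0.52 in the same order as for Chpf2. For Chsy1 they were −0.11 to 0.30, −0.16 to 0.27, −0.26 to 0.39 and −0.26 to 0.23, and for Csgalnact2 −0.14 to 0.12, −0.15 to 0.19, −0.23 to 0.23 and −0.18 to 0.24. For Xylt2 it was −0.0222 to 0.71 (miR-183-5p-EVs). For number 2, B3gat3 ran from −0.0874 to 0.0207 and Chst11 from −0.0245 to 0.0692, and for number 1 against 3 Chsy1 ran from −0.0574 to 0.0976. At 1 to 8 estimated counts per library, Csgalnact1 was too shallow for a test.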

Other observations

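Among the core proteins that can carry chondroitin sulfate, the transcripts of Cd74 (713 TPM, mean of 12 libraries) and Srgn (441 TPM) were far above that of Cd44 (8.34 TPM). Cd74 stood at a mean of 882 TPM in the number 2 libraries and 629 in the others, and Srgn at 353 and 485.

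Of the subunits of the heparan sulfate polymerase, Ext2 had 28.3 to 38.2 TPM while Ext1 had 0 to 2 estimated counts in every library, under the floor of 3 counts. Whether the Ext1 transcript is absent from these cells or escapes the assignment of reads was not tested.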
